A study of Mus musculus with 12 samples.

Results

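Creatine is the small molecule on which cells store and move phosphate energy, and 6 of the 50508 gene models in the UMI table are described here for their part in it. They are Gatm and Gamt, which make creatine, Slc6a8, which carries it into cells, and the creatine kinases Ckb, Ckm and Ckmt1. The rows were taken by gene name and followed across wells and plates. The set was selected on measured values of this series. Gamt was picked with its levels in the gate and irradiation groups known, so its contrasts are given as values with no test. The other 5 are further genes of the pathway, reported whatever their values. The set was drawn up with earlier results of these data known, and the muscle kinase gene Ckmt2 is outside it. A UMI (unique molecular identifier) counts 1 captured transcript molecule. All 6 genes had at least 1 UMI, and 4 of them, Gatm, Gamt, Ckb and Ckmt1, had enough UMIs to pass the expression filter of the gene test.

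The starting tissue was intestinal LMMP, the muscle layer with its myenteric nerve plexus, from adult C57BL/6 animals. Each cell was sorted into its own well of a 96-well plate by the red Dclk1-tdTom label. Every mouse, controls included, received 3 mg tamoxifen at 8 or 9 weeks of age and had tissue collected 10 days later. Surface CD49b divided the labelled cells into CD49b+ cells, named glial by the submitters, and CD49b- cells, named neuronal. The irradiated CD49b+ and irradiated CD49b- groups came from mice given 10.5 Gy 7 days after tamoxifen and collected 3 days after irradiation, and the homeostasis CD49b+ and homeostasis CD49b- groups from mice that were not irradiated. A group comprised 3 plates. Every plate drew on 2 pooled mice, and within a treatment an equal replicate number in both gates marks 1 such pool. The driver of the tamoxifen-dependent label is not spelled out in the sources used here beyond the name Dclk1-tdTom, so the cells are only those that carried this label.

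Creatine is made in a pair of steps. Gatm, a mitochondrial amidinotransferase, moves the amidino group of arginine onto glycine, which leaves ornithine and guanidinoacetate, and Gamt, a cytosolic methyltransferase, adds a methyl group from S-adenosylmethionine to guanidinoacetate. Creatine kinases then pass phosphate between ATP and creatine: Ckb is the cytosolic enzyme of brain and other non-muscle tissues, Ckm the cytosolic enzyme of skeletal muscle, and Ckmt1 the ubiquitous mitochondrial enzyme. In the brain, glial cells are known as a main site of Gamt and Gatm, and loss of Gamt, Gatm or Slc6a8 function in humans causes cerebral creatine deficiency.

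In the GENCODE vM21 annotation of GRCm38, all 6 are protein-coding genes. Gamt lies on chromosome 10 from 80258151 to 80261012 (minus strand), Gatm on chromosome 2 from 122594467 to 122611303 (minus strand) and Slc6a8 on chromosome X from 73673150 to 73682502 (plus strand). Ckb lies on chromosome 12 from 111669361 to 111672338 (minus strand), Ckmt1 on chromosome 2 from 121357714 to 121363737 (plus strand) and Ckm on chromosome 7 from 19404776 to 19422841 (plus strand). The 250 bases before the start of transcription are shown for both enzymes of synthesis and for the kinase with the most UMIs, because these genes carry the gate and irradiation values below. They are RefSeq promoters of build GRCm38.p6, 5′ to 3′ in the direction of the gene, for Gamt at chr10:80261013-80261262 (minus strand), Gatm at chr2:122611278-122611527 (minus strand) and Ckb at chr12:111672339-111672588 (minus strand). Capitals mark every match, on either strand, to the GC box, spelled GGGCGG, the TATA motif, spelled TATAAA, or the CCAAT box, which is its own spelling. A match on the opposite strand reads as CCGCCC for the first, as TTTATA for the second and as ATTGG for the last. No matches overlap one another.
Gamt: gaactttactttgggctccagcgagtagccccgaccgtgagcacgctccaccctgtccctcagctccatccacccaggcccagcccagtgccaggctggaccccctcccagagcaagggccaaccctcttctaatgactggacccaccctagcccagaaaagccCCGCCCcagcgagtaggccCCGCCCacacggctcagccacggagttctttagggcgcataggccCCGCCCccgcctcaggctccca
Gatm: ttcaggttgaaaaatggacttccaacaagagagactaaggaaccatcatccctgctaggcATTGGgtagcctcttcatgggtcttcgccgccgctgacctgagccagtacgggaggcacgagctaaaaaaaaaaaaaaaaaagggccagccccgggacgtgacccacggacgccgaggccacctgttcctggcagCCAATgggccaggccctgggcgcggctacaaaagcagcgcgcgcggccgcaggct
Ckb: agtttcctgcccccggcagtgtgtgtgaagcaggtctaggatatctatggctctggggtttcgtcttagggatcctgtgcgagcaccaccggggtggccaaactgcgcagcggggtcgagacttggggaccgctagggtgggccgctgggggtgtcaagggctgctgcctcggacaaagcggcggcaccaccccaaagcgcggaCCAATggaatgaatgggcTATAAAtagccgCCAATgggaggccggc

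Gamt held 3 GC boxes, all on the strand opposite the gene, of which the nearest began 22 bases before the start, and neither of the other motifs. At least 1 GC box is present in 32.7% of the 32851 RefSeq promoters of this length, and 3 or more in 8.47%. Gatm held 2 CCAAT boxes, 1 on each strand, and no GC box or TATA motif. Ckb held 1 TATA motif that began 28 bases before the start, with CCAAT boxes beginning 46 and 16 bases before it. TATAAA is present in 12.4% of the promoters and CCAAT in 33.9%. GC content was 66.8% in Gamt, 59.2% in Gatm and 62.8% in Ckb, against a median of 52.4% over all promoters.

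Plates held 154993 to 245922 UMIs in the CD49b+ gate and 543087 to 747272 in the CD49b- gate. Of 1150 wells, 964 were retained (436 CD49b+ and 528 CD49b-), with plate medians of 2110 to 2680 UMIs per CD49b+ well and 5904.5 to 8335 per CD49b- well. Summed over 10 glia markers, the CD49b+ plates held 3380 to 4626 CPM (UMIs scaled to the same library size on every plate) and the CD49b- plates 60.9 to 142. Summed over 11 neuron markers, CD49b+ plates held 142 to 1533 CPM and CD49b- plates 6967 to 8316, and 1 of the markers, Uchl1, was listed at 0 on all plates. On irradiated CD49b+ plates the neuron marker sum was 1533, 1064 and 166 CPM in replicates 1, 2 and 3, where 2, 3 and 0 wells held more neuron than glia marker UMIs. The 12 plates share 95 of 96 well barcodes, which belong to the plate design. Replicate 1 of both treatments carried neighbouring plate numbers and is the one set of plates that holds both treatments.

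The gate comparison asked how the genes differ between CD49b+ (glial) and CD49b- (neuronal) cells. The gene of the first step of synthesis was higher in CD49b+ cells, and both tested kinase genes were called lower. The Ckb difference was small and its call did not hold under every alternative, as given below. Gatm stood at 60.6, 99.3 and 129 CPM on irradiated and 207.5, 183 and 166 CPM on homeostasis CD49b+ plates, against 16.6, 7.27 and 12.5 CPM on irradiated and 7.02, 11.7 and 14.4 CPM on homeostasis CD49b- plates (replicates 1, 2 and 3 in each). All 6 CD49b+ plates lay above all 6 CD49b- plates. The log2 fold change was 3.50 (SE 0.278, edgeR adjusted p = 1.55e-10), with Gatm higher in the CD49b+ plate of 6 of 6 pools. In UMIs, Gatm had 149 on CD49b+ plates and 42 on the deeper CD49b- plates. In plate sums such as these, fewer cells with a transcript and less of it per cell cannot be told apart.

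Gamt, the gene of the second step, stood at 66.7, 70.9 and 68.0 CPM on irradiated and 77.1, 116.5 and 53.6 CPM on homeostasis CD49b+ plates, against 4.15, 8.72 and 15.6 CPM on irradiated and 35.1, 35.1 and 41.7 CPM on homeostasis CD49b- plates. Every CD49b+ plate again lay above every CD49b- plate, but the lowest of them, homeostasis replicate 3, was 1.29 times the CD49b- plate of its own pool. The CD49b+ to CD49b- ratio within a pool was 16.1, 8.13 and 4.36 in irradiated pools 1, 2 and 3, against 2.20, 3.32 and 1.29 in homeostasis pools. The fitted log2 fold change was 1.95 (SE 0.296), given without a test. Gamt rested on 80 UMIs on CD49b+ plates and 88 on CD49b- plates.

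**Figure D1:**
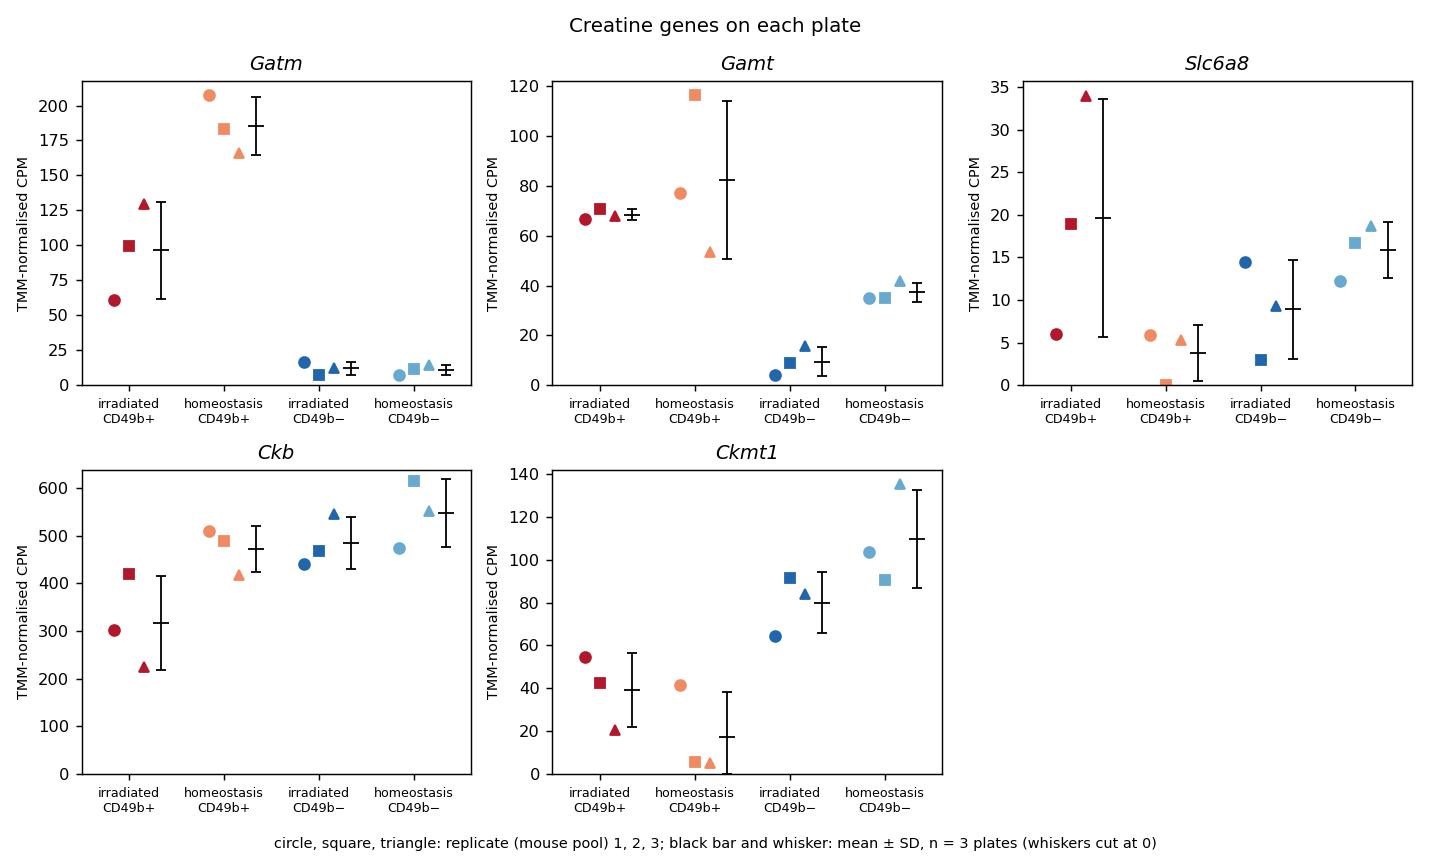
Levels of 5 creatine genes on each of 12 plates in TMM-normalised CPM (y axis, linear, from 0), by group (x axis). Points are plates, with the mean ± SD beside them. Gatm and Gamt sit highest on CD49b+ plates and Ckmt1 on CD49b- plates, and Gamt is lowest on the irradiated CD49b- plates, at 4.15 to 15.6 CPM.

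Ckmt1, the mitochondrial kinase, stood at 54.5, 42.5 and 20.4 CPM on irradiated and 41.5, 5.55 and 5.36 CPM on homeostasis CD49b+ plates, against 64.2, 91.6 and 84.2 CPM on irradiated and 104, 90.3 and 135 CPM on homeostasis CD49b- plates. Every CD49b- plate lay above every CD49b+ plate. The log2 fold change was -1.85 (SE 0.329, edgeR adjusted p = 4.08e-05), lower in the CD49b+ plate of 6 of 6 pools. Without homeostasis CD49b+ replicate 1 it was -2.70. On CD49b+ plates Ckmt1 had 30 UMIs, of which 9 were from homeostasis plates, 7 of them on replicate 1, and on CD49b- plates it had 355. Its exons overlap those of Strc, which had 1 UMI in all retained wells.

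Ckb, the cytosolic kinase, stood at 303, 421 and 224.5 CPM on irradiated and 510, 488 and 418 CPM on homeostasis CD49b+ plates, against 441, 468 and 546 CPM on irradiated and 474, 616 and 552 CPM on homeostasis CD49b- plates. The gates overlapped, and Ckb was lower in the CD49b+ plate of 5 of 6 pools. The log2 fold change was -0.41 (SE 0.161, edgeR adjusted p = 0.0319), while the median over all 8555 tested genes was -0.13. The call was lost with every deposited well summed (adjusted p = 0.0534), without any of 4 single plates (irradiated CD49b- replicate 3, irradiated CD49b+ replicate 3, and homeostasis CD49b- replicates 2 and 3, where the highest adjusted p was 0.102), and with each well thinned to 1000 UMIs, where the log2 fold change was 0.02 (adjusted p = 0.93). Of the 31-base words in Ckb transcripts, 17.5% also occur in another gene model, most often Gm12892, Ckb-ps1 and Ckb-ps2, so reads could be split among them. Ckb-ps1 had 39 UMIs on CD49b+ plates and 50 on CD49b- plates, against 424 and 1907 for Ckb. Pooled by gate, this made 36.8 CPM on CD49b+ and 13.6 CPM on CD49b- plates for Ckb-ps1. For Ckb it made 400 and 519 CPM, the opposite direction, and the part of split reads in the Ckb value was not tested.

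Of the set, 1 of the 3 tested genes other than Gamt was higher in CD49b+ cells and 2 were lower. Over all 8555 genes, 29.6% were called higher and 32.4% lower in this contrast, and the calls of the set are to be read against these shares.

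Slc6a8, the creatine transporter, did not pass the expression filter. It stood at 6.06, 18.9 and 34 CPM on irradiated and 5.93, 0 and 5.36 CPM on homeostasis CD49b+ plates, against 14.5, 2.91 and 9.36 CPM on irradiated and 12.3, 16.7 and 18.7 CPM on homeostasis CD49b- plates. These are 12 UMIs in the CD49b+ gate and 45 in the CD49b- gate, a ratio of CPM of 0.925 with a 95% counting interval of 0.446 to 1.78. The interval covers counting error alone and not the spread between plates. The CD49b+ to CD49b- ratio within a pool ran from 0 in homeostasis pool 2 to 6.50 in irradiated pool 2. A gate difference of Slc6a8 was neither shown nor excluded. Ckm, the muscle kinase, had 0 UMIs on CD49b+ plates, which allows up to 2.83 CPM (3 counts over the 6 plates), and 2 UMIs on CD49b- plates, 1 on irradiated and 1 on homeostasis replicate 3. Ckm overlaps an antisense gene, A930016O22Rik, which had 6 UMIs. Ckmt2, the mitochondrial kinase of muscle, had 1 UMI in all retained wells.

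Shares of wells depend on how many UMIs each well holds, so they were compared at equal depth. Without thinning, a Gamt UMI was seen in 59 of 436 CD49b+ wells and 74 of the more deeply covered 528 CD49b- wells. With each well thinned to 1000 UMIs in a single random draw, 26 CD49b+ and 5 CD49b- wells kept a Gamt UMI. The expected share over all such draws, calculated exactly, was 6.01% ± 1.54 of wells on CD49b+ plates and 2.09% ± 1.44 on CD49b- plates (SD, n = 6). For Gatm the expected share was 12.3% ± 4.46 on CD49b+ plates and 1.07% ± 0.369 on CD49b- plates, and the unthinned counts were 112 and 38 wells.

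For Ckmt1 the expected share was 2.73% ± 1.94 on CD49b+ plates and 8.98% ± 2.47 on CD49b- plates, against 29 and 239 unthinned wells. Ckb was the one gene of the set seen in most CD49b- wells, 462 of 528, against 238 of 436 CD49b+ wells. At 1000 UMIs per well its expected share was 29.7% ± 7.39 on CD49b+ plates and 34.7% ± 3.13 on CD49b- plates, with both treatments pooled. Within homeostasis the gates overlapped, at 35.8% ± 3.36 on CD49b+ and 36.2% ± 2.86 on CD49b- plates, and within the irradiated groups they did not, at 23.5% ± 3.29 on CD49b+ and 33.2% ± 3.09 on CD49b- plates (SD, n = 3 each). A well held at most 4 Gamt UMIs in the CD49b+ gate and 5 in the CD49b- gate, and at most 10 and 20 Ckb UMIs. Gamt and Gatm were seen together in 13 CD49b+ wells, where 59 held Gamt and 112 held Gatm out of 436. In CD49b- wells they were seen together in 5, where 74 held Gamt and 38 held Gatm out of 528. Whether these counts differ from those of unrelated genes was not tested.

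**Figure D2:**
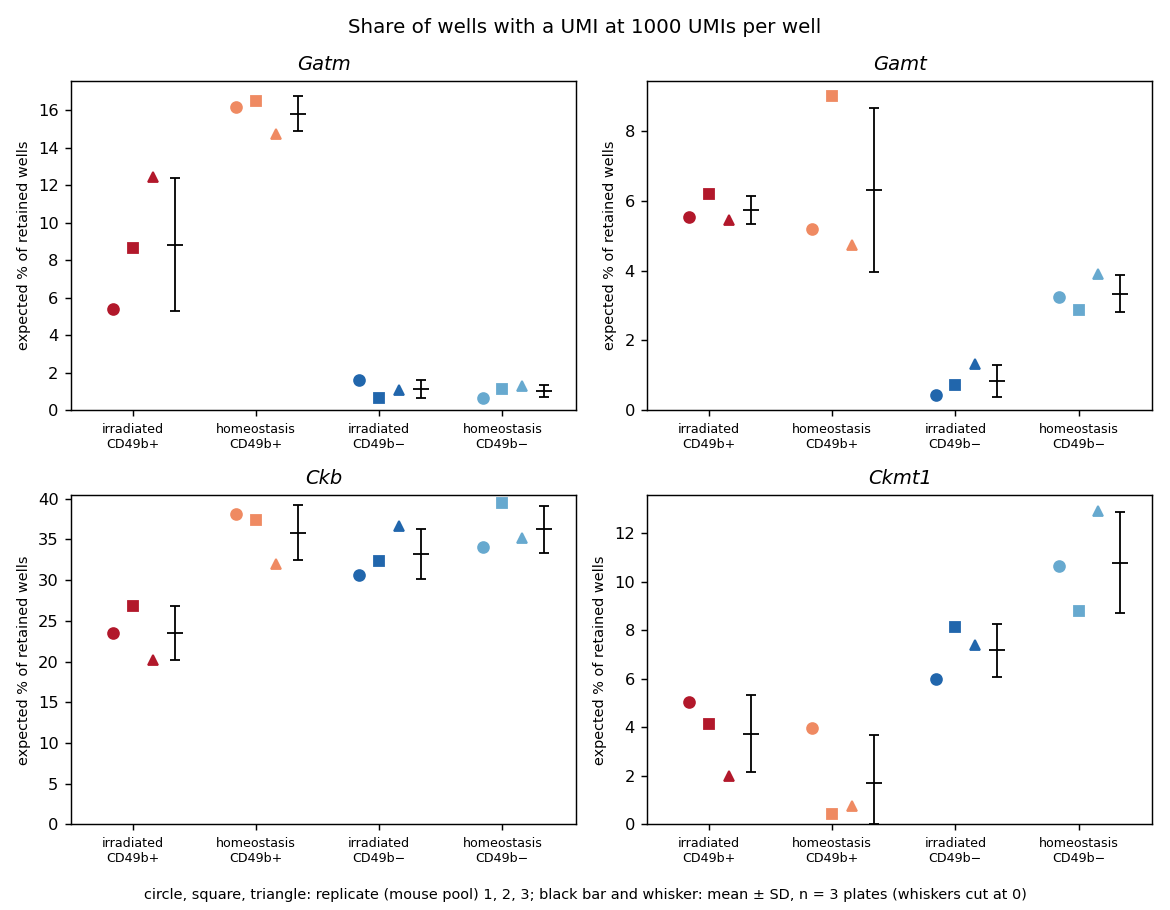
Expected share of retained wells with at least 1 UMI of each gene when each well is reduced to 1000 UMIs (y axis, percent, from 0), by group (x axis). Points are plates and bars the mean ± SD. At equal depth Gamt lies at 0.835% of wells on irradiated CD49b- plates, against 3.34% on homeostasis CD49b- plates, and Ckb overlaps between the gates in homeostasis.

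Among neuronal-gate cells, the irradiation comparison asked which transcripts differ 3 days after irradiation. Gamt had 2, 6 and 10 UMIs on irradiated plates and 20, 21 and 29 UMIs on homeostasis plates, which makes 9.49 ± 5.76 CPM on irradiated and 37.3 ± 3.81 CPM on homeostasis plates (SD, n = 3 each). The plates did not overlap, in a gene that was chosen with these values known. The summed glia markers moved with Gamt on these plates, at 60.9, 106.5 and 79.8 CPM on irradiated and 128, 125 and 142 CPM on homeostasis plates, again without overlap, and 0 of the 10 glia markers were called in this contrast. Without wells of the other class the Gamt value was -1.91, and the part of the glia marker UMIs in it was not tested. The fitted log2 fold change was -1.89 (SE 0.42), given without a test. With any 1 of the 12 plates left out it lay between -2.41 and -1.60. That range describes the plates on which Gamt was picked and adds no support. A Gamt UMI was seen in 17 of 266 irradiated and 57 of 262 homeostasis wells. Plate medians of UMIs per well overlapped, at 5904.5 to 7674 on irradiated and 6338 to 8335 on homeostasis plates. The expected share at 1000 UMIs was 0.835% ± 0.456 on irradiated and 3.34% ± 0.532 on homeostasis plates. In replicate 1, the set with both treatments, it stood at 4.15 CPM on the irradiated and 35.1 CPM on the homeostasis plate.

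Of the other 3 tested genes, 0 were called after irradiation in this gate by edgeR or DESeq2. An unadjusted edgeR p under 0.05 was found for 0 of the 3 and for 354 of all 8555 genes. On the log2 scale the difference was 0.06 (SE 0.48, edgeR adjusted p = 1) for Gatm, whose plates stood at 12.1 ± 4.67 CPM after irradiation and 11 ± 3.73 CPM in homeostasis (SD, n = 3). It was -0.17 (SE 0.213, adjusted p = 1 in edgeR) for Ckb, at 485 ± 54.2 CPM on irradiated and 547 ± 71.1 CPM on homeostasis plates. For Ckmt1 it was -0.45 (SE 0.303, edgeR adjusted p = 1), at 80.0 ± 14.2 CPM on irradiated and 109.7 ± 23.1 CPM on homeostasis plates, which overlapped. In replicate 1 Gatm stood at 16.6 CPM on the irradiated and 7.02 CPM on the homeostasis plate, Ckb at 441 (irradiated) and 474 (homeostasis) CPM, and Ckmt1 at 64.2 (irradiated) and 104 (homeostasis) CPM. Across all genes 0.0468% were called in either direction, 4 of 8555, and 0 of the 3 tested creatine genes is near that background. Slc6a8 had 15 UMIs on irradiated and 30 on homeostasis CD49b- plates.

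In CD49b+ cells, irradiated Gatm plates stood at 96.4 ± 34.4 CPM and homeostasis plates at 186 ± 20.7 CPM (SD, n = 3 each), and the groups did not overlap. The log2 fold change was -0.95 (SE 0.332), which did not pass (edgeR adjusted p = 0.239, and 0.121 to 0.818 over the alternatives). Among all genes 0.713% were called in this contrast, and of the 3 tested creatine genes 0 were called by edgeR or DESeq2. An unadjusted edgeR p under 0.05 was found for 2 of the 3 (Gatm and Ckb) and for 910 of all 8555 genes. Irradiated replicate 1 was the lowest Gatm plate at 60.6 CPM, and without it the log2 fold change was -0.74. It is also the CD49b+ plate with the highest neuron marker sum, 1533 CPM. Without wells that held more neuron than glia marker UMIs the log2 fold change was -0.84 (edgeR adjusted p = 0.402), and the part of the remaining neuron marker UMIs was not tested. Within replicate 1, the set with both treatments, Gatm stood at 60.6 CPM on the irradiated and 207.5 CPM on the homeostasis plate. The expected share of wells with a Gatm UMI at 1000 UMIs was 8.84% ± 3.53 on irradiated and 15.8% ± 0.944 on homeostasis CD49b+ plates.

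Gamt overlapped between the treatments in CD49b+ cells, at 68.5 ± 2.17 CPM on irradiated and 82.4 ± 31.8 CPM on homeostasis plates, and its log2 fold change was -0.26 (SE 0.401). The difference between its 2 irradiation effects was 1.63 (SE 0.585), given without a test. Ckb stood at 316 ± 98.8 CPM on irradiated and 472 ± 47.8 CPM on homeostasis CD49b+ plates (log2 fold change -0.56, SE 0.242, edgeR adjusted p = 0.399), and overlapped by a single plate. Of the 172 Ckb UMIs on irradiated CD49b+ plates, 37 lay in the 5 wells with more neuron than glia marker UMIs, and without such wells the log2 fold change was -0.77 (adjusted p = 0.19). Ckmt1 stood at 39.2 ± 17.3 CPM on irradiated and 17.5 ± 20.8 CPM on homeostasis CD49b+ plates (log2 fold change 1.23, SE 0.643, edgeR adjusted p = 0.518). Without homeostasis CD49b+ replicate 1, which held 7 of the 9 homeostasis UMIs, it was 2.81 (adjusted p = 0.212), and the lowest value with a different plate left out was 0.80. Only 2 of its 21 UMIs on the irradiated plates lay in those 5 wells. Neuron markers moved with it: 5 of 10 tested were called higher on irradiated CD49b+ plates, and their part in the Ckmt1 value was not tested. In replicate 1 Gamt stood at 66.7 CPM on the irradiated and 77.1 CPM on the homeostasis CD49b+ plate, Ckb at 303 (irradiated) and 510 (homeostasis) CPM, and Ckmt1 at 54.5 (irradiated) and 41.5 (homeostasis) CPM.

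The test of a different irradiation effect in the gates called 0 of the 3 tested genes in edgeR. DESeq2 did not call Ckb and gave no adjusted p for Gatm and Ckmt1. In edgeR 1 of the 3, Ckmt1, had an unadjusted p under 0.05, beside 649 of all 8555 genes. The interaction was -1.01 for Gatm, -0.39 for Ckb and 1.67 for Ckmt1, with edgeR adjusted p of 0.744, 0.848 and 0.583. Without homeostasis CD49b+ replicate 1 that of Ckmt1 was 3.26 (adjusted p = 0.3). Over all genes 0.0117% were called, 1 of 8555, so these values do not show that the effects were alike.

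Myenteric neurons fall broadly into Nos1 neurons, which make nitric oxide and relax the muscle, and Chat neurons, which make acetylcholine. Within the CD49b- plates, wells with a Nos1 UMI and no Chat UMI (287) were set against wells with a Chat UMI and no Nos1 UMI (78), pool by pool. Ckb stood at 525.7 ± 89.8 CPM in Nos1 wells, from 435.5 to 643.8 with a median of 516.3, and at 375.7 ± 128 CPM in Chat wells, from 145.5 to 510.4 with a median of 411.2 (SD, n = 6 pools). It was higher in the Nos1 wells of 5 of 6 pools, by 0.55 ± 0.602 on the log2(CPM + 10) scale (two-sided exact sign-flip permutation p = 0.0625, 0.1875 after Benjamini-Hochberg adjustment over 4 genes). With 6 pools the smallest p that this test can give is 0.031. The lowest value, 145.5 CPM, came from the 6 Chat wells of irradiated replicate 1, and without that pool the difference was 0.35. In wells thinned to 1000 UMIs it was 1.22 (adjusted p = 0.3125).

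Gatm had 30 UMIs in Nos1 wells and 1 in Chat wells, or 12.7 ± 7.53 and 1.49 ± 3.64 CPM. The Chat wells are fewer and hold fewer UMIs in all. In homeostasis replicate 1, a single Gatm UMI made 8.91 CPM in Chat wells and 3.72 CPM in Nos1 wells. A 0 in Chat wells therefore does not show that Gatm was lower there. Gatm was listed at 0 in the Chat wells of 5 pools and was higher in Nos1 wells in those 5 (0.95 ± 0.828 on the same scale, exact permutation p = 0.09375, adjusted 0.1875). With a pseudocount of 1 CPM the Gatm difference was 2.93, and with 50 CPM 0.28. Gamt stood at 21.1 ± 15.9 CPM in Nos1 wells and 20.7 ± 12.9 CPM in Chat wells (log2 difference 0.03 ± 0.633, exact permutation p = 1). Ckmt1 stood at 86.6 ± 28.6 CPM in Nos1 wells and 84.9 ± 31.8 CPM in Chat wells (0.06 ± 0.77, exact permutation p = 0.75). None of the 4 passed. In Nos1 wells Gamt stood at 5.70, 10.4 and 17.6 CPM in irradiated pools and at 14.9, 28.7 and 49.5 CPM in homeostasis pools, which overlapped. Slc6a8, not tested here, had 19 UMIs in Nos1 wells and 9 in Chat wells, of which 8 came from homeostasis replicate 3.

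**Figure D3:**
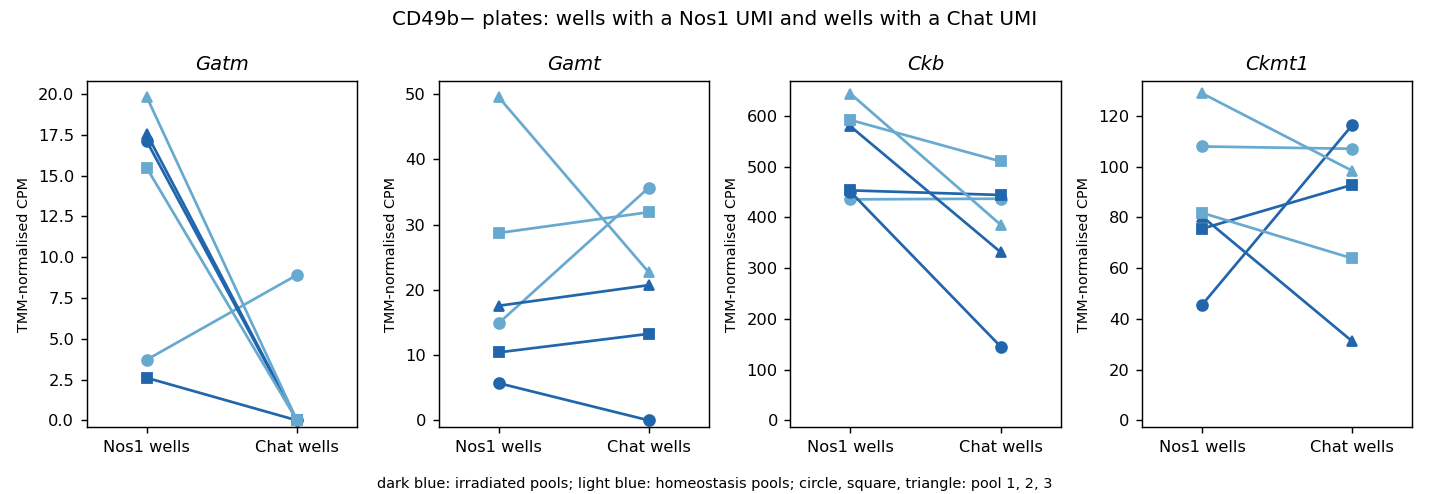
CPM (y axis, linear) of 4 creatine genes in pooled Nos1 wells (left) and Chat wells (right) of the CD49b- plates. The values are scaled to the UMI totals of those wells without a TMM factor, although the axis label reads TMM-normalised. Each line joins the wells of 1 mouse pool. Ckb lies higher in Nos1 wells in 5 of 6 pools, and Gamt and Ckmt1 lines run in both directions.

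Around the set stand genes that supply its substrates or use its products. In the arginine and ornithine list, 3 of 10 tested genes were higher in CD49b+ cells and 6 lower, against 29.6% higher and 32.4% lower over all genes. The lower ones with the largest change were Nos1 itself (log2 fold change -6.10), Ddah1, which breaks down the synthase inhibitor dimethylarginine (-3.82), and Ass1 and Asl, which rebuild arginine from citrulline (-3.57 and -3.38). Ass1 stood at 270 ± 258 CPM on irradiated and 153 ± 42.6 CPM on homeostasis CD49b+ plates, against 2436 ± 309 and 2464 ± 807 CPM on irradiated and homeostasis CD49b- plates (SD, n = 3), with 567 CPM on irradiated CD49b+ replicate 2 alone. The higher ones, named after their values were seen, were Oat, which breaks down ornithine (1.61), the antizyme inhibitor Azin1 (1.34) and Ddah2 (0.98). All 9 passed in edgeR, with 4.94e-04 the highest adjusted p of those 7 named.

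Of the methyl donor cycle, which makes the S-adenosylmethionine that Gamt uses, 7 of 20 genes were tested, with 1 higher and 1 lower, both under the shares of 29.6% and 32.4% over all genes. Mat2a, the S-adenosylmethionine synthetase of non-liver cells, stood at 257 ± 36.4 CPM on irradiated and 238 ± 35.6 CPM on homeostasis CD49b+ plates, against 83.1 ± 21.4 and 96.9 ± 31 CPM on irradiated and homeostasis CD49b- plates (log2 fold change 1.45, SE 0.193, edgeR adjusted p = 7.44e-07). Shmt2, a mitochondrial serine hydroxymethyltransferase, was lower (-1.04, adjusted p = 0.0319 in edgeR).

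Among adenylate kinases and carriers of adenine nucleotides, which also spread phosphate energy, 1 of 12 tested genes was higher and 6 were lower in CD49b+ cells, beside the same 29.6% and 32.4% over all genes. Lower were Slc25a4, the mitochondrial ADP/ATP carrier (log2 fold change -1.89, SE 0.194), Vdac1, a pore of the outer mitochondrial membrane (-1.55, SE 0.192), and Nme1, a nucleoside diphosphate kinase (-1.25, SE 0.155). Ampd3, an AMP deaminase, was higher (1.75, SE 0.414). Of 5 other creatine and phosphagen genes 1 was tested: Slc6a6, the taurine transporter, was lower (-2.80, SE 0.399, edgeR adjusted p = 2.03e-06). The median log2 fold change was -1.58 in the arginine list, -0.17 in the methyl donor list and -0.44 in the nucleotide list, beside -0.13 over all tested genes. In none of these lists was a gene called in either irradiation contrast or in the interaction.

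**Figure D4:**
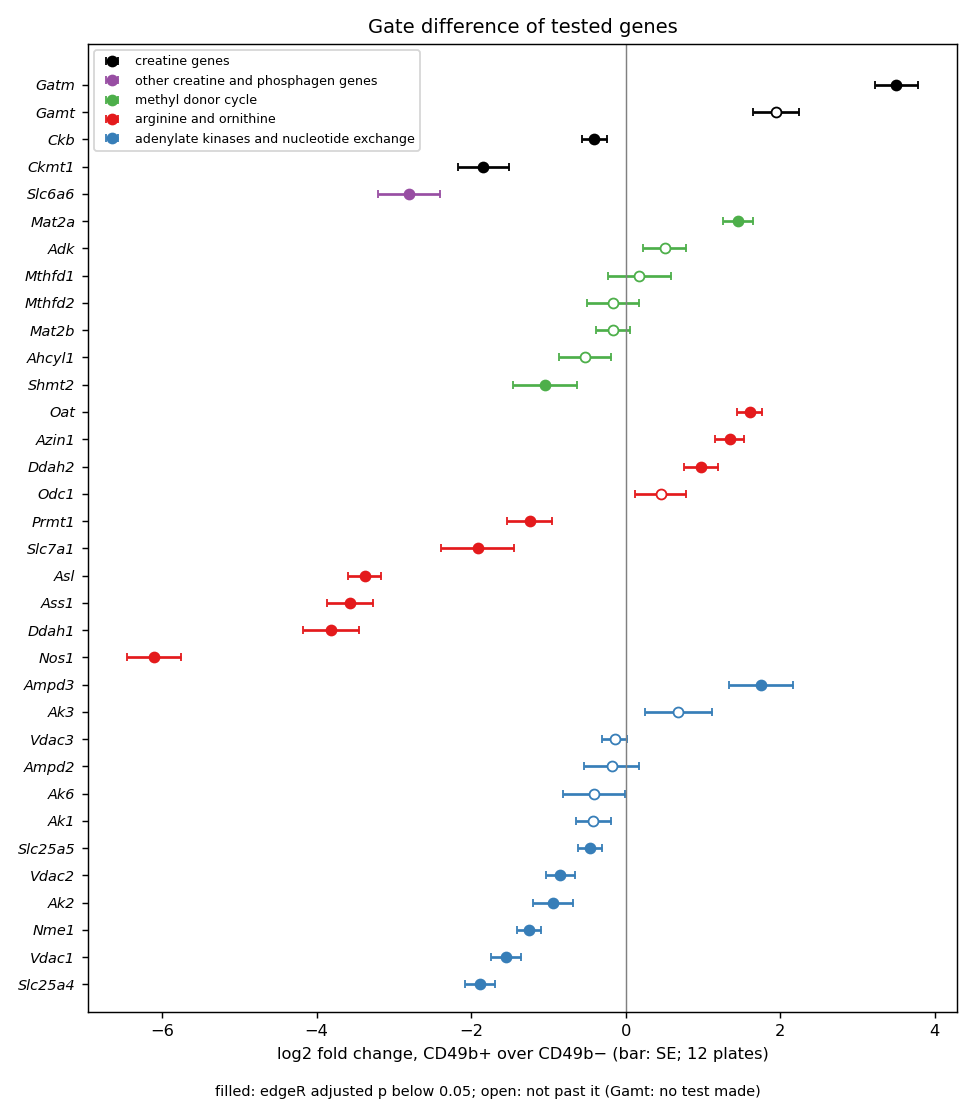
Log2 fold change of CD49b+ over CD49b- plates (x axis; bars are SE) for the tested creatine genes and 4 lists of related genes (y axis, coloured by list). Filled points passed the edgeR adjusted p of 0.05; Gamt was not tested. Gatm lies at 3.50, Ckmt1 at -1.85 and Nos1 at -6.10.

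Gamt overlaps no other gene, and none of its 31-base words occurs in another gene model. Its neighbours Mum1, Ndufs7 and Dazap1, of which Dazap1 lies 474 bases away, did not pass in any contrast, and in irradiated CD49b- cells their log2 fold changes were -0.11, -0.04 and 0.25 (edgeR adjusted p = 1 for each). Across the 12 plates, the tested genes whose log2(CPM + 1) ran most like that of Gamt were Gm2a (Pearson r 0.932), Arhgap39 (0.930) and Chadl (0.921). All 3 were higher on CD49b+ plates and had 0 CPM on irradiated CD49b- replicate 1, the plate with the lowest Gamt. After subtraction of the gate means the closest were Rnf112 (0.868), Actr2 (0.855) and Anxa3 (0.847), of which Rnf112 and Anxa3 had 0 CPM on every CD49b+ plate.

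For Ckb the closest genes were Cul2 (0.952), Bysl (0.941) and Msn (0.936), and after subtraction of the gate means Ddo (0.933), Slc35a5 (0.931) and Cul2 (0.929). Each of these correlations is among the 3 highest of 8554 over 12 plates that share gates, pools and depth, and is a description. Gatm had r = 0.725 with Gamt across all plates, rank 672 of 8554 genes, and -0.04 within the gates. Ckb and Ckmt1 had r = 0.333 across all plates and -0.171 within the gates.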

How the data were processed

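The deposited table holds raw UMI counts per gene and well, made by the authors and not normalised, with 1 column per well. Per the labels' protocols, cells were lysed and reverse transcribed in their wells and libraries made with Nextera XT. The submitters' processing notes name STAR 2.5.3a and featureCounts 1.5.3, beside builds GRCm38 and GRCh38, with no role given. How reads were collapsed to UMIs and whether counting used strand are not given in the sources used here.

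The 6 genes and the lists of related genes were chosen with earlier results of these data known. Wells were retained with at least 1000 UMIs, 500 genes and under 20% mitochondrial UMIs, then summed per plate, since wells are not replicates. The sums entered the edgeR 4.0.16 quasi-likelihood test (R 4.3.3), with filterByExpr, TMM factors and a mean for each of 4 groups. P-values were adjusted by Benjamini-Hochberg across 8555 genes and called at 0.05. CPM are TMM-normalised. The fit was also run on simulated plate sums with known changes. These had independent plates drawn from a common mean per gene, without mouse pools, plate sets or the gate difference of the data. That run therefore does not show how the fit handles those features. Gate plates are paired by mouse pool, and same-pool residuals had correlations over genes of 0.142, 0.0812 and -0.0265 (irradiated) and of 0.0656, 0.0291 and 0.0382 (homeostasis). Pairing was left out of the fit and tried as a block. Other alternatives were DESeq2 1.42.0, no filter on low counts, other well filters, thinned wells, wells of the other class left out, the plate set as a term, and each plate left out. Nos1 and Chat wells were compared with two-sided exact sign-flip tests over pools. Thinned shares were recalculated as exact expected values after the single draw had been seen. Genes were named by rule: all 6 of the set, up to 4 past the threshold with the largest change per list and contrast, and the 3 most alike Gamt or Ckb. Counting intervals and floors cover counting error only. Pools are separate animals, but 3 per group limit every test.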

Additional observations from a re-analysis of the deposited data

Results flagged for a closer look

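Slc6a8, the creatine transporter, had group means that differed in opposite directions between irradiated and homeostasis plates of the gates. All 3 irradiated CD49b+ plates lay above the homeostasis CD49b+ mean, with a difference of 15.9 CPM, and all 3 irradiated CD49b- plates lay below the homeostasis CD49b- mean, with a difference of -6.975 CPM. The gene did not pass the expression filter, so this difference was not tested in the fit reported. With no filter on low counts, the edgeR interaction was 3.04 (SE 1.23, adjusted p = 0.813). In replicate 1, the set with both treatments, the pattern was absent: 6.06 CPM on the irradiated and 5.93 CPM on the homeostasis CD49b+ plate (1 UMI each), and 14.5 CPM on the irradiated and 12.3 CPM on the homeostasis CD49b- plate (7 UMIs each). The CD49b+ values rest on 10 UMIs in irradiated and 2 in homeostasis wells. No pool stood far from the other 5 in the Nos1 against Chat differences of the 6 genes.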

How the results depend on the processing

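The gate calls of Gatm and Ckmt1 held under every alternative that tested them (22 for Gatm, 21 for Ckmt1, which was not tested in thinned wells), and none of the 3 genes was called in either irradiation contrast or the interaction under any alternative that gave an adjusted p (DESeq2 gave none for Gatm and Ckmt1 in the interaction). With wells thinned to 1000 UMIs, 1 gene of the set was called in the gate contrast instead of 3, 1561 genes in all instead of 5311, 0 in irradiated CD49b- cells instead of 4, and 18 in irradiated CD49b+ cells instead of 61. There the Ckb gate value was 0.021, and that of Gatm was -0.91 in irradiated CD49b- cells and 0.34 in the interaction. Fewer genes and UMIs enter that fit. With no filter on low counts the calls were 45 in CD49b- cells, 146 in CD49b+ cells and 67 in the interaction, and with DESeq2 they were 112 in CD49b+ cells and 33 in the interaction. With the plate set as a term they were 30 in CD49b+ cells and 4 in the interaction, and Gatm stood at -0.12 in irradiated CD49b- cells. Without wells of the other class 22 genes were called in CD49b+ cells. The mouse pool as a replicate block, which pairs the gates, gave 0 interaction calls instead of 1 and changed no other call of the set (Ckb -0.42, adjusted p = 0.0373).

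Leaving out 1 plate at a time gave 2 to 3 creatine genes in the gate contrast, 1 to 8 calls in irradiated CD49b- cells, 4 (without homeostasis CD49b+ replicate 3) to 156 (without irradiated CD49b+ replicate 3) in CD49b+ cells, and 0 to 87 (again without irradiated CD49b+ replicate 3) in the interaction. Gatm then ranged from -0.18 to 0.34 in irradiated CD49b- cells. In the Nos1 against Chat comparison Gamt was -0.55 with at least 2 marker UMIs and -0.22 in thinned wells. Leaving out 1 pool, which leaves too few for p below 0.05, gave -0.14 to 0.21 for Gamt, -0.15 to 0.31 for Ckmt1, 0.82 to 1.23 for Gatm and 0.35 to 0.66 for Ckb. The causes were not tested.

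Differences in the share of wells, CD49b+ minus CD49b- in percentage points, varied with the depth and the wells used. Unthinned they were -0.516 for Gamt, 18.6 for Gatm, -33.5 for Ckb, -38.9 for Ckmt1, -5.14 for Slc6a8 and -0.379 for Ckm. At 2000 UMIs they were 10.0 for Gamt, 22.6 for Gatm, -13.5 for Ckmt1 and -0.196 for Ckm, whose expected value at 1000 UMIs was -0.045. Gamt, Slc6a8 and Ckm rest on few UMIs, and 3 plates per group limit every contrast.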
